A study of Abies pinsapo with 24 samples.

Results

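Class III peroxidases are the secreted heme peroxidases of plants. They oxidise phenolic compounds with hydrogen peroxide, and in the cell wall they couple monolignols into lignin and cross-link wall polymers. They can also generate reactive oxygen species. In trees they form large families, and members differ in the organ and season in which they are expressed. Among the Arabidopsis proteins met here, PER72 and PER17 are linked to lignification, PER53 (also called ATPA2) is a lignin-type peroxidase, and PER9 acts with PER3, PER39, PER64 and PER72 in the Casparian strip of the root endodermis. PER9 is also known from the tapetum, the nurse tissue of the anther.

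The peroxidases were chosen by annotation, with earlier results of these data known. The rule was a land plant best hit whose protein name is Peroxidase with a number or letter code, or whose symbol is PER with a number. Ascorbate peroxidases, glutathione peroxidases and peroxiredoxins were left out. A further 5 features whose best hit is a cationic peroxidase, all with counts, did not meet the rule on names and are in none of the sums and shares below. The rule found 63 of the 51046 features of the count table, and 56 of the 63 carried the plant peroxidase domain PF00141. Their best hits were Arabidopsis thaliana proteins for 54, grapevine proteins for 6, sweet potato proteins for 2 and a horseradish protein for 1, with 23 distinct best-hit proteins in all. A name such as PER12 below is the best hit's name and not a proven ortholog. PER5 and PER4 here stand for the grapevine proteins Peroxidase 5 and Peroxidase 4, not for the Arabidopsis genes of those symbols. The largest groups were PER12 with 15 features, PER53 with 6, and PER5 and PER65 with 5 each.

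The data are gene-level read counts from bulk RNA sequencing of Abies pinsapo, the Spanish fir, taken from wild adult trees aged 30 to 50 years in the Sierra de las Nieves. Needles and roots were harvested in spring (May 2023) and in autumn (September 2022) at Ronda, the upper edge of the forest at 1700 to 1800 m, and at Yunquera, the lower edge at 1100 to 1200 m. The labels give 8 groups of 3 libraries and number the trees 1 to 6, with trees 4 to 6 at Ronda and trees 1 to 3 at Yunquera. The 22 libraries used were spring needles (2 from Ronda, 3 from Yunquera), autumn needles (3 and 3), spring roots (2 from Ronda, 3 from Yunquera) and autumn roots (3 and 3). No tree was treated or genetically altered according to the labels. The protocol speaks of 6 independent trees, the series text speaks of more individuals per harvest, and whether material was pooled is not stated. Season coincides with the year of harvest, and organ coincides with the RNA extraction method, so those cannot be told apart.

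Total counts ran from 13355301 to 27427263 per library over the 24 libraries. Of these, 2 stood apart from their organ label and were set aside. The library labelled spring roots Ronda replicate 2 had 3.42% of its counts in 99 photosystem and Rubisco small-subunit features, and the library labelled spring needles Ronda replicate 3 had 0.0371%. The same share was 2.56 to 6.11% in the 11 needle libraries used and 0.0423 to 0.129% in the 11 root libraries used. Counts without both libraries are given first below, followed by those with all 24. The latter stand without a share of all features called.

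Of the 63 peroxidases, 44 had at least 1 count in the table and 19 had none. Of those 19, 18 were 9 pairs of features lying on the same stretch of sequence, 6 pairs on 1 strand and 3 pairs on opposite strands. All 4 PER16 features, both PER11 and both PER15 features, 2 of 3 PER49, 4 of 5 PER65 and 4 of 15 PER12 features were lost in this way. Of all features, 98.2% of 20124 overlapping features had no count, against 8.53% of 30922 features that overlapped nothing. The remaining feature without a count was PER3, a Casparian strip peroxidase in Arabidopsis. The absence of counts for the 18 overlapping features therefore says nothing about their expression. The 44 counted peroxidases were 472 to 3576 bases long. Each feature with a gene model began at base 1 of its own reference sequence, and 9 counted features had no such model and are named below by their reference sequence, with the strand where 2 share a sequence. The 11 counted PER12, the 6 PER53 and the 5 PER5 features can share reads where they are near-identical, so values of single copies within these groups are less certain than those of the groups.

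Peroxidase RNA averaged higher in needles than in roots and varied between libraries by several times. Summed over the 44 features, peroxidases reached 1198 to 1829 CPM (counts per 1000000 counts of the library) in the 5 spring needle libraries and 721 to 1229 CPM in the 6 autumn needle libraries. The sum was 250.2 to 1005 CPM in the 5 spring root libraries and 309 to 817 CPM in the 6 autumn root libraries. The ranges of the seasons overlapped in both organs. Needles averaged 1252 ± 322 CPM and roots 625 ± 231 CPM (SD, n = 11 each). Few features carried these totals: 7 to 11 peroxidases made up 80% of the sum in a needle library, and 3 to 9 did so in a root library. In bulk tissue, fewer cells of a type and less RNA per cell cannot be told apart.

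**Figure D1:**
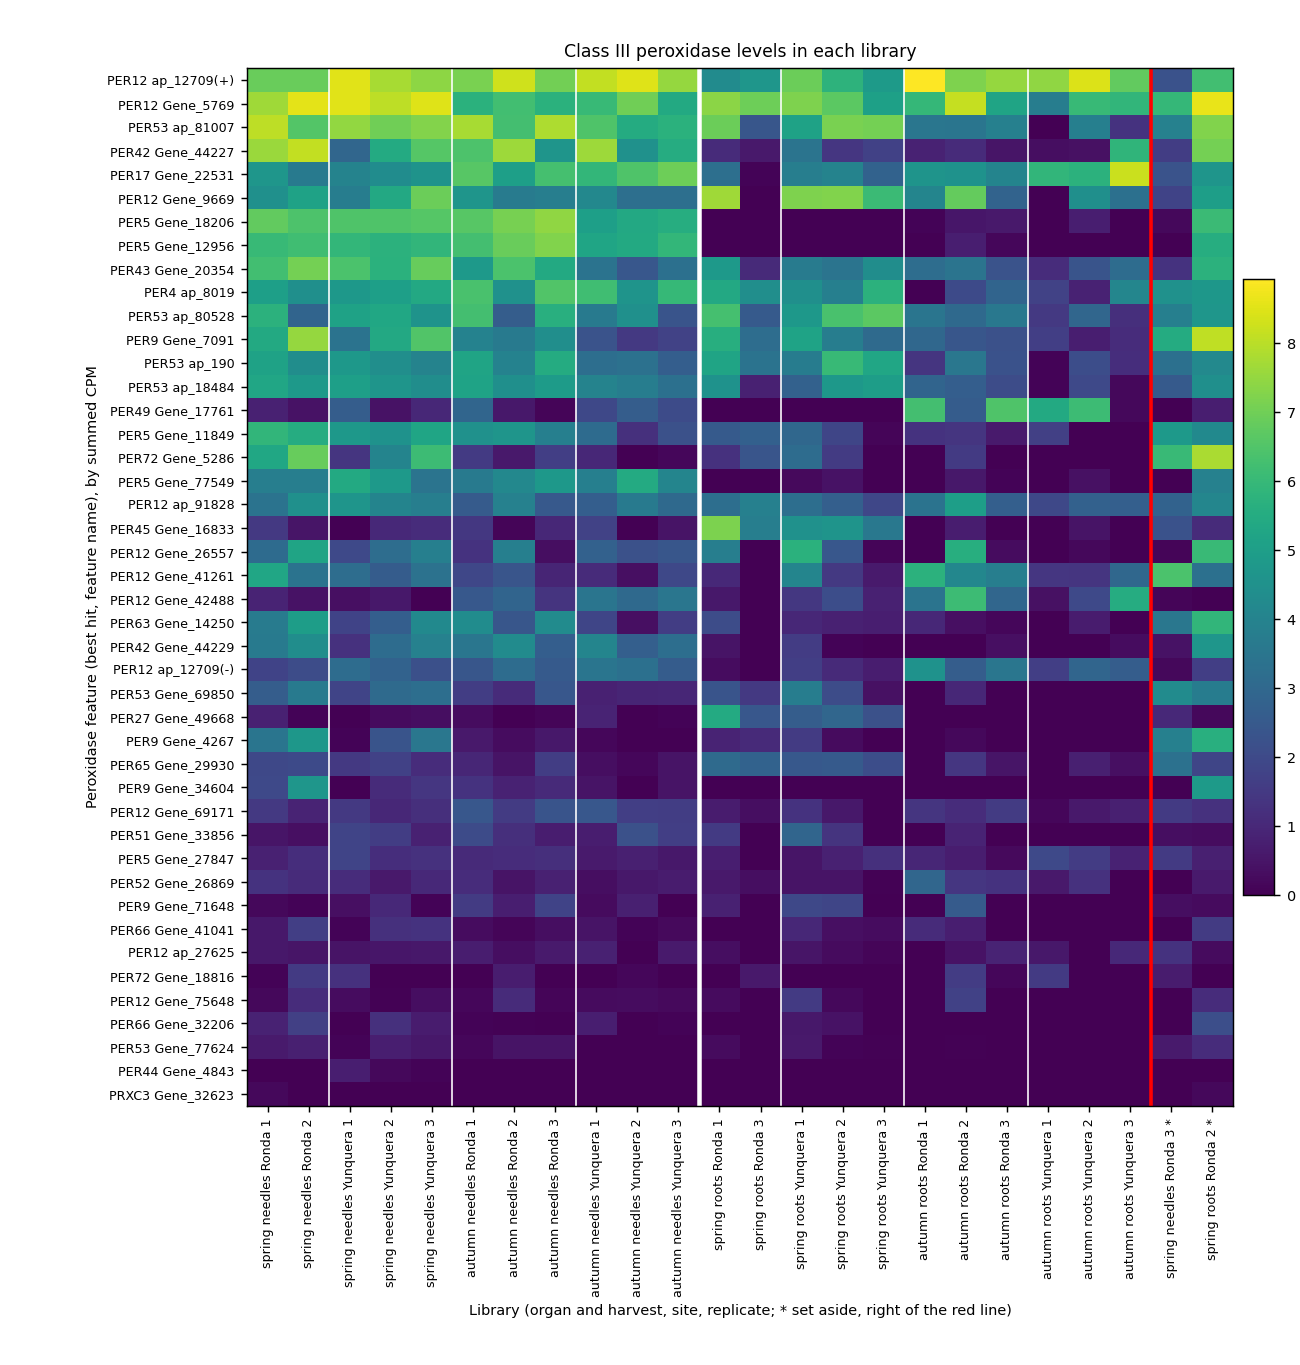
Heatmap of log2(CPM + 1) for the 44 counted class III peroxidases (rows, named by best hit and feature) in each library (columns, grouped by organ, season and site), with the 2 libraries set aside to the right of the red line. Low values are dark blue and high values yellow. PER5 Gene_18206, Gene_12956 and Gene_77549 are brighter in every needle library used than in every root library used, while PER27 and PER45 stand out in spring roots and PER49 in autumn roots.

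Compared per length, PER12 features led in both organs, followed in needles by PER53, PER42, PER5 and PER43 and in roots by PER49, PER45 and PER53. In needles the order by mean CPM per kb was PER12 ap_12709(+) (96.2), PER53 ap_81007 (89.5), PER12 Gene_5769 (82.9), PER42 Gene_44227 (80.6), PER5 Gene_18206 (36.2) and PER43 Gene_20354 (34.5). The leading features differed by less than their spread between needle libraries, which in CPM was 216 ± 95.4 for ap_12709(+), 138 ± 75.5 for ap_81007 and 107 ± 91.0 for Gene_44227 (mean ± SD, n = 11). In roots the order was PER12 ap_12709(+) (66.3), PER12 Gene_9669 (48.9), PER12 Gene_5769 (44.8), PER49 Gene_17761 (33.7), PER45 Gene_16833 (30.8) and PER53 ap_81007 (28.6). Here too neighbours in the order lay within their spread, as ap_12709(+) averaged 154 ± 147 CPM (SD, n = 11). The most abundant feature alone held up to 39.9% of peroxidase counts in a needle library and up to 59.8% in a root library. PER12 Gene_9669 shows how far root libraries differed: it had 202 and 0 CPM in spring roots from Ronda and 145, 150.3 and 67.0 CPM from Yunquera, against 0 to 112 CPM with a median of 12.4 in autumn roots.

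In needles, season changed 12 of the 42 peroxidases tested: 10 were higher in spring and 2 were lower. The genes higher in spring included a lignification-linked PER72, a pair of PER9 features, PER43, 2 PER53 and 2 PER12 features, 1 PER5 and 1 PER65. The lower ones were PER17, also linked to lignification in Arabidopsis, and a further PER12. The comparison asks how the needle transcriptome of the same stands differed between May and September. With edgeR's quasi-likelihood test and a Benjamini-Hochberg adjusted p under 0.05, 28.6% of the peroxidases tested were called, beside 15.3% of all 20560 features tested. The share was 10 of 42 higher, beside 8.79% of all features, and 2 of 42 lower, beside 6.49%. The median log2 fold change was 0.63 for the peroxidases and 0.03 for all features, and 29 of 42 peroxidases were above 0. All fold changes by season are spring minus autumn, averaged over both sites.

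PER12 Gene_5769 was the most abundant of the changed genes. It covers bases 1 to 2293 of reference sequence ap_4388 on the plus strand. Spring needles held 203 and 382 CPM at Ronda and 370.0, 264 and 363 CPM at Yunquera, against 42.2 to 126 CPM with a median of 57.8 in the 6 autumn libraries. Every spring library lay above every autumn library. The log2 fold change was 2.21 ± 0.29 (SE, adjusted p = 0.00174, edgeR). PER12 Gene_41261 also separated the seasons, with 37.7 and 9.47 CPM at Ronda and 8.19, 5.01 and 9.22 CPM at Yunquera in spring needles, against 0.303 to 4.07 CPM with a median of 1.94 in autumn needles. Its log2 fold change was 2.79 ± 0.62 (SE, adjusted p = 0.0165, edgeR). The call was lost without spring needles Ronda replicate 1, its highest library, where the value was 2.15 and the adjusted p 0.0774. The PER12 group did not move as one: Gene_42488 had 0.859 and 0.360 CPM at Ronda and 0.277, 0.487 and 0 CPM at Yunquera in spring needles, against 1.56 to 10.3 CPM with a median of 6.80 in autumn needles. These ranges did not overlap either, in the opposite direction, with a log2 fold change of -3.95 ± 0.72 (SE, adjusted p = 0.00765, edgeR). Of the 11 PER12 features, 6 had a log2 fold change above 0 and 8 did not pass the test.

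PER17 and PER72, both linked to lignin in Arabidopsis, went in opposite directions in needles. PER17 Gene_22531 had 24.9 and 11.6 CPM at Ronda and 14.8, 19.1 and 23.1 CPM at Yunquera in spring needles, against 31.7 to 124 CPM with a median of 83.6 in autumn needles. The groups did not overlap, and the gene fell by 2.09 ± 0.37 on the log2 scale (SE, adjusted p = 0.00652, edgeR). PER72 Gene_5286 had 39.1 and 116 CPM at Ronda and 1.60, 15.4 and 68.6 CPM at Yunquera in spring needles, against 0 to 2.18 CPM with a median of 0.767 in autumn needles. Spring values spanned a wide range, and the spring library of tree 1 (Yunquera replicate 1) lay within the autumn range. The log2 fold change was 5.97 ± 1.09 (SE, adjusted p = 0.00766, edgeR), with 7.24 without autumn needles Yunquera replicate 1 and 5.08 without spring needles Yunquera replicate 3. Of the 5 tested features with a lignin-linked best hit (PER17, PER49, PER52 and 2 PER72), these were the 2 that passed the test in needles. The group was drawn up with PER49 in it and without PER53, the lignin-type peroxidase. All 6 PER53 features tested in needles had a log2 fold change above 0, and 2 were called higher in spring.

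PER9, the Casparian strip and tapetum peroxidase of Arabidopsis, had 4 features here and 2 of them rose in spring needles. Gene_7091 had 42.4 and 181 CPM at Ronda and 9.63, 40.7 and 90.5 CPM at Yunquera, against 1.82 to 20.6 CPM with a median of 7.68 in autumn needles. It was higher in spring in all 5 trees sampled in both seasons, by 3.49 ± 0.60 (log2, SE, adjusted p = 0.00594, edgeR) and by 2.81 without spring needles Ronda replicate 2. Gene_4267 had 10.1 and 25.7 CPM at Ronda and 0.0553, 4.04 and 10.6 CPM at Yunquera in spring needles, against 0 to 0.542 CPM with a median of 0.174 in autumn needles. It was higher in 4 of 5 trees, with the spring value of tree 1 inside the autumn range. The log2 fold change was 6.07 ± 1.12 (SE, adjusted p = 0.00801, edgeR), 7.48 without autumn needles Yunquera replicate 1 and 5.42 without spring needles Yunquera replicate 3. PER72 Gene_5286 and PER9 Gene_4267 thus ranked the spring libraries alike, although the ratio of their counts ran from 2.40 to 29.0 over needle libraries with both counted. Casparian strip best hits, which here means the 4 PER9 and 2 PER72 features counted, had 3 of 6 called higher in spring needles and 0 called lower. Of all features, 8.79% were called higher and 6.49% lower. The 3 called are PER9 Gene_7091, PER9 Gene_4267 and PER72 Gene_5286 described above, so this count is no separate result. As to other tissues, features named for Casparian strip membrane proteins (CASP) or for CASP-like proteins were summed. They took 0.0187 to 0.0282% of counts in spring needles and 0.0133 to 0.0315% in autumn needles. Since CASP-like proteins are included, this sum is no measure of the Casparian strip alone. Features with pollen proteins as best hit, of which 14 of 20 were counted in each season, took 0.0285 to 0.171% of counts in spring needles and 0.108 to 0.481% in autumn needles. Photosystem and Rubisco features took 4.46 to 6.11% in spring needles and 2.56 to 4.21% in autumn needles. The part of these differences in the peroxidase results was not tested.

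PER43 Gene_20354, PER5 Gene_11849 and PER53 Gene_69850 rose by about the same factor. Of the 5 PER5 features tested 1 was called, and their log2 fold changes ran from -0.23 to 2.06. PER43 Gene_20354 had 74.0 and 132 CPM at Ronda and 83.5, 51.5 and 114 CPM at Yunquera in spring needles, against 4.42 to 83.1 CPM with a median of 18.4 in autumn needles, a log2 fold change of 2.24 ± 0.36 (SE, adjusted p = 0.00436, edgeR). PER5 Gene_11849 had 57.9 and 45.1 CPM at Ronda and 26.4, 22.7 and 36.9 CPM at Yunquera in spring needles, against 1.33 to 24.5 CPM with a median of 10.6 in autumn needles. Its log2 fold change was 2.06 ± 0.40 (SE, adjusted p = 0.00954, edgeR). Both were higher in all 5 trees, and in both the overlap came from autumn needles Ronda replicate 2. PER53 Gene_69850 had 5.15 and 11.6 CPM at Ronda and 2.60, 7.55 and 8.46 CPM at Yunquera in spring needles, against 0.748 to 4.41 CPM with a median of 1.05 in autumn needles, a log2 fold change of 2.27 ± 0.45 (SE, adjusted p = 0.0109, edgeR). All 6 PER53 features had a log2 fold change above 0, from 0.41 to 3.51, and 2 of the 6 passed the test. The other was Gene_77624, which like PER65 Gene_29930 passed at a mean under 5 CPM and is named outside the rule for named genes, having been chosen after the values were seen. Of the 12 called peroxidases, 11 changed in the same direction in all 5 trees and 4 had no overlap between seasons. The same was not counted over all features called, so these counts describe the 12 and set peroxidases apart from no other genes.

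With the tree as a block, 7 of the 42 peroxidases were called for season in needles, beside 6.38% of all features. The calls of PER9 Gene_7091 (adjusted p = 0.0722), PER72 Gene_5286 (adjusted p = 0.0944), PER9 Gene_4267 (adjusted p = 0.0811) and PER12 Gene_41261 (adjusted p = 0.0525, all edgeR) ended under the block. With all 24 libraries 11 were called, and PER43 was not among them (adjusted p = 0.118, edgeR).

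**Figure D2:**
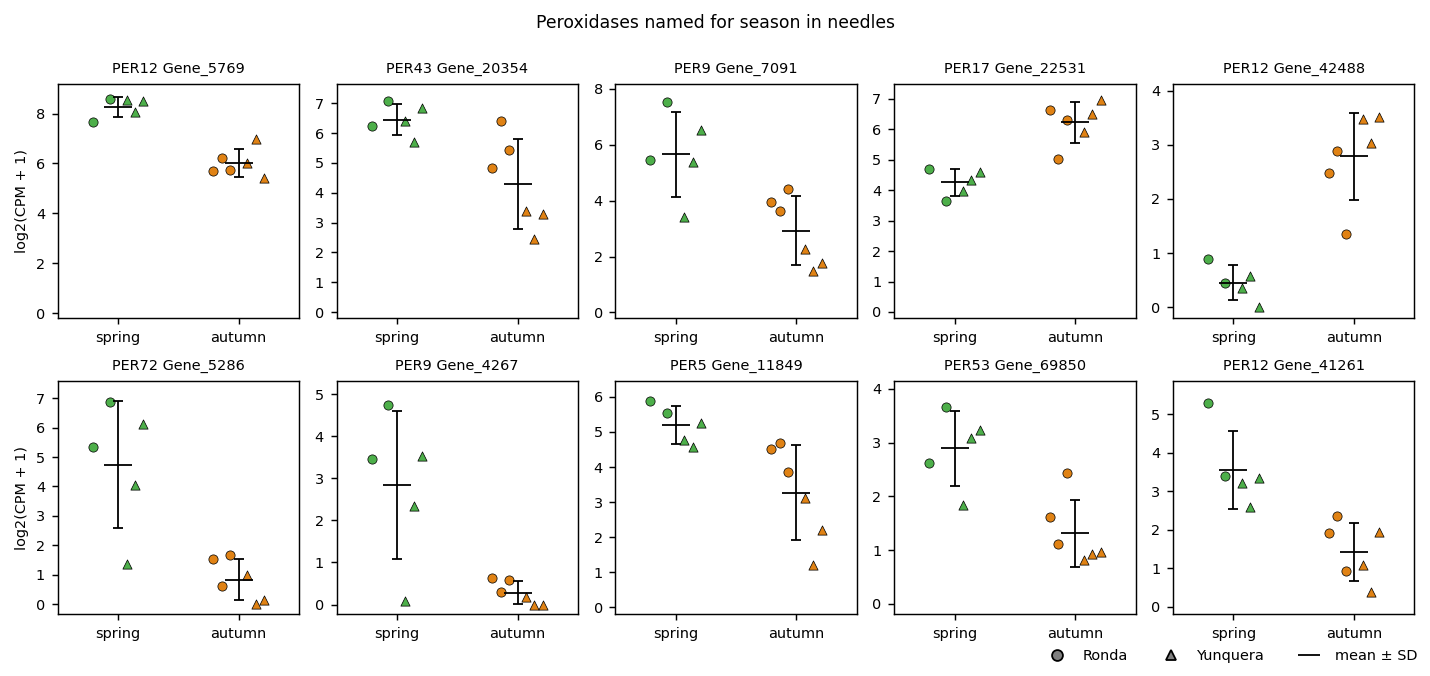
Values of the 10 named peroxidases changed by season in needles, as log2(CPM + 1) per library, with spring left of autumn, Ronda and Yunquera by marker, and bars for the mean ± SD of a season. PER12 Gene_5769 and Gene_41261 are higher in every spring library, PER17 and PER12 Gene_42488 are lower in every spring library, and PER72 and PER9 Gene_4267 have 1 low spring library from Yunquera.

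In roots, season changed 8 of the 35 peroxidases tested. In the root libraries used, PER27 had no count in autumn and PER49 had none in spring. PER27, PER45, PER9 and 2 PER53 features were higher in spring. PER49 and the neighbouring PER12 features ap_12709(+) and ap_12709(-) were lower in spring. The peroxidases called were 22.9% of those tested, beside 5.54% of all 18538 features tested in roots. The 5 higher compare with 2.41% of all features and the 3 lower with 3.13%. The median log2 fold change was 1.95 over the peroxidases and 0.03 over all features, and 21 of 35 peroxidases were above 0.

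PER27 Gene_49668 is a short feature of 472 bases covering ap_44572 on the minus strand. It had 42.5 and 4.38 CPM at Ronda and 5.25, 6.70 and 3.68 CPM at Yunquera in spring roots, against no count in any of the 6 autumn root libraries. The difference was at least 433-fold, taking 3 counts over the summed autumn libraries as the floor, and passed the test (adjusted p = 0.00864, edgeR). Without spring roots Ronda replicate 1 it was at least 173-fold (adjusted p = 0.0183, edgeR). PER45 Gene_16833 resembled it, with 142 and 13.3 CPM at Ronda and 22.2, 23.5 and 10.9 CPM at Yunquera in spring roots, against 0 to 0.643 CPM in autumn roots, where 4 of 6 libraries had no count. Its log2 fold change was 7.74 ± 1.22 (SE, adjusted p = 0.0103, edgeR). The value was 10.34 without autumn roots Ronda replicate 2, 9.99 without autumn roots Yunquera replicate 2 and 6.47 without spring roots Ronda replicate 1. In both genes spring roots Ronda replicate 1 was the highest library, and in both no spring library reached down to the autumn range.

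PER49 Gene_17761 was the mirror image. This 693-base feature on ap_12103 had no count in any of the 5 spring root libraries, against 75.5, 5.04 and 88.3 CPM at Ronda and 41.9, 69.1 and 0.146 CPM at Yunquera in autumn roots. Autumn levels spread over a wide range, with Yunquera replicate 3 close to none. The gene was at least 1787-fold lower in spring roots, by the same floor (adjusted p = 0.0298, edgeR). Its call was lost on leaving out any of 6 of the 11 libraries, with adjusted p up to 0.0956: autumn roots Ronda 1 and 3, autumn roots Yunquera 1 and 2, and spring roots Ronda 1 and 3. Its other 2 features were among the overlapping pairs without counts.

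PER9 Gene_7091 was the peroxidase called by season in both organs, out of 19 called in either and 35 tested in both. The share of all features called in both organs was not counted, so this overlap is not read as large or small. In spring roots Gene_7091 had 47.2 and 8.25 CPM at Ronda and 34.98, 12.9 and 7.58 CPM at Yunquera, against 0.670 to 6.84 CPM with a median of 2.92 in autumn roots. The groups did not overlap, and the log2 fold change was 3.10 ± 0.59 (SE, adjusted p = 0.0175, edgeR). The call was lost without autumn roots Ronda replicate 3 (edgeR adjusted p = 0.0540) and without spring roots Ronda replicate 1 (2.22, adjusted p = 0.0747). All 3 PER9 features tested in roots had a log2 fold change above 0, from 3.04 to 5.44, and the other 2 did not pass the test.

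The PER53 group leaned toward spring in roots as it did in needles. All 5 tested features had log2 fold changes above 0, from 2.77 to 6.40, and 2 passed. PER53 ap_80528 had 77.5 and 4.84 CPM at Ronda and 25.97, 82.2 and 101 CPM at Yunquera in spring roots, against 1.32 to 11.1 CPM with a median of 7.02 in autumn roots (log2 fold change 3.24 ± 0.70, SE, adjusted p = 0.0289, edgeR). PER53 ap_190 had 36.1 and 9.67 CPM at Ronda and 12.6, 63.2 and 38.5 CPM at Yunquera, against 0.0535 to 10.6 CPM with a median of 2.46 (log2 fold change 3.37 ± 0.84, SE, adjusted p = 0.0469, edgeR). In both, spring roots Ronda replicate 3 was the library that fell within the autumn range. These calls were the least firm of the root set: ap_80528 lost its call without any of 7 of 11 libraries (adjusted p up to 0.155, and a value of 1.69 without spring roots Ronda replicate 1) and ap_190 without any of 8 (adjusted p up to 0.150). For ap_80528 these were autumn roots Ronda 1, 2 and 3, autumn roots Yunquera 1 and 3, spring roots Ronda 1 and spring roots Yunquera 2. For ap_190 they were autumn roots Ronda 1 and 3, autumn roots Yunquera 3, spring roots Ronda 1 and 3, and spring roots Yunquera 1, 2 and 3, and its value was 4.02 without autumn roots Yunquera replicate 2. With the tree as a block ap_80528 was no longer called (adjusted p = 0.123, edgeR).

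PER12 ap_12709(+) and ap_12709(-) lie next to each other on reference sequence ap_12709, at bases 804 to 3054 of the plus strand and 3241 to 4037 of the minus strand. The 2 features do not overlap. The protocols name strand-specific and non-specific libraries without saying which sample received which. Reads of 1 feature could be counted with the other where they run past its annotated bases, or where the 2 sequences are near-identical. Neither was tested. The feature ap_12709(+) had 18.97 and 24.6 CPM at Ronda and 121, 53.8 and 28.0 CPM at Yunquera in spring roots, against 109 to 488 CPM with a median of 179 in autumn roots. The gene fell by 2.68 ± 0.52 on the log2 scale (SE, adjusted p = 0.0190, edgeR), with overlap between 1 spring and 1 autumn library of Yunquera. The call was lost without spring roots Ronda replicate 1 (edgeR adjusted p = 0.0885), Ronda replicate 3 (adjusted p = 0.0773) or Yunquera replicate 2 (adjusted p = 0.0507). The feature ap_12709(-) had 0.232 and 0 CPM at Ronda and 2.17, 1.11 and 0.643 CPM at Yunquera in spring roots, against 2.14 to 22.8 CPM with a median of 5.85 in autumn roots. Its log2 fold change was -4.20 ± 0.79 (SE, adjusted p = 0.0171, edgeR) and -6.37 without spring roots Ronda replicate 1, and it was not called without spring roots Ronda replicate 3 (adjusted p = 0.0573). Counts of ap_12709(+) were 27.1 to 47.6 times those of ap_12709(-) over needle libraries and 17.7 to 81.7 times over root libraries with both counted.

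The number of peroxidases called in roots depended on single libraries. It was 5 without autumn roots Ronda replicate 1, 4 without autumn roots Ronda replicate 3, 4 without spring roots Ronda replicate 1, 4 without spring roots Ronda replicate 3 and 5 without spring roots Yunquera replicate 2. With all 24 libraries it was 7, and ap_12709(-) was not among them (adjusted p = 0.0812, edgeR). Beside these genes, CASP and CASP-like features took 0.0349 to 0.0718% of counts in spring roots and 0.022 to 0.0708% in autumn roots, and pollen best hits, with 13 of 20 features counted in each season, took 0.119 to 1.26% in spring roots and 0.027 to 0.598% in autumn roots. Their part in the peroxidase results was not tested.

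**Figure D3:**
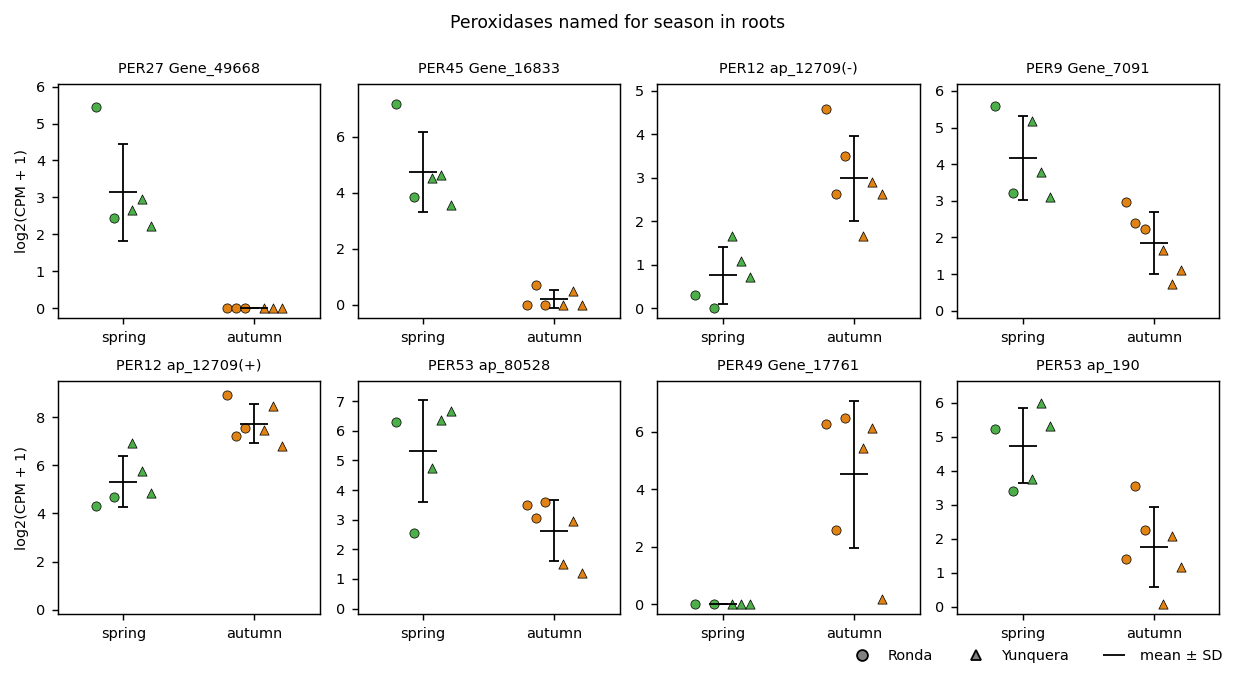
Values of the 8 named peroxidases changed by season in roots, as log2(CPM + 1) per library, with spring left of autumn, Ronda and Yunquera by marker, and bars for the mean ± SD of a season. PER27 lies at 0 in all 6 autumn libraries and PER49 at 0 in all 5 spring libraries, and PER45 and PER9 Gene_7091 are separate between seasons as well.

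The season change differed between needles and roots for 7 of 42 peroxidases, by the test of the difference itself, beside 3.62% of all 21600 features tested: 5 had a positive difference, beside 2.69% of all features, and 2 a negative one, beside 0.931%. Values below are the log2 season change in needles minus that in roots. PER27 and PER45, which rose in spring roots, had low counts in needles in both seasons: PER27 had 0 to 0.758 CPM in spring needles and 0 to 0.873 CPM in autumn needles, and PER45 had 0 to 1.77 CPM in spring needles and 0 to 2.37 CPM in autumn needles. Their adjusted p for the difference were 0.0150 for PER27 and 0.0234 for PER45, with fitted differences of -10.21 and -7.75 (edgeR). PER49, which fell in spring roots, had 0.341 to 5.15 CPM in spring needles and 0.0891 to 6.45 CPM in autumn needles (difference 11.41, adjusted p = 0.0210, edgeR). For PER27 and PER49, and for PER5 Gene_18206 below, the size of the fitted difference depends on how a set of libraries without counts is handled and is no bound.

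The 3 PER12 features called here all went the same way, toward a relatively higher spring level in needles than in roots. The feature ap_12709(-) had a difference of 3.49 ± 0.75 (SE, adjusted p = 0.0150, edgeR): it had 2.48 to 7.86 CPM in spring needles and 4.28 to 9.97 CPM in autumn needles, beside the fall in spring roots. The feature ap_12709(+) had a difference of 2.29 ± 0.58 (SE, adjusted p = 0.0370, edgeR), with 117 to 366 CPM in spring needles and 130.3 to 359 CPM in autumn needles. Gene_41261 rose in spring needles and had 0 to 15.9 CPM with a median of 1.03 in spring roots, against 1.61 to 52.7 CPM with a median of 9.96 in autumn roots. Its difference was 5.24 ± 1.30 (SE, adjusted p = 0.0326, edgeR). The features ap_12709(+) and Gene_41261 were called but fell outside the rule for named genes. PER5 Gene_18206 also passed (fitted difference 5.83, adjusted p = 0.0293, edgeR), but its root values rest on 29 counts in all, none of them in spring. The call was lost on leaving out any of 8 of 22 libraries, with adjusted p up to 1.00 and a fitted difference of 3.27 without autumn roots Yunquera replicate 2.

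These calls too rested on few libraries. The number of peroxidases called was 3 without autumn needles Yunquera replicate 1, 2 without spring needles Ronda replicate 1, 3 without spring needles Ronda replicate 2, 4 without spring needles Yunquera replicate 2 and 3 without spring roots Ronda replicate 3. It was 4 with the tree as a block, beside 2.53% of all features, where the calls of PER27 (adjusted p = 0.0566), PER45 (adjusted p = 0.0863) and PER5 Gene_18206 (adjusted p = 0.0633, all edgeR) ended. It was 1 without the needles of tree 1, where PER27 (adjusted p = 0.0776), PER49 (adjusted p = 0.0556), PER45 (adjusted p = 0.0563) and PER5 Gene_18206 (adjusted p = 0.0611, all edgeR) were not called. With all 24 libraries it was also 1, where ap_12709(-) (adjusted p = 0.397), PER49 (adjusted p = 0.0651) and PER45 (adjusted p = 0.0676, all edgeR) were not called and PER5 Gene_18206 stood at -0.39. PER27 lost its call without 2 of 22 libraries, PER49 without 3 and PER45 without 4, while ap_12709(-) kept it without any 1 of the 22. In these, the highest adjusted p was 0.0838 for PER27, 0.0707 for PER49 and 0.120 for PER45, and the highest for ap_12709(-) was 0.0456. Without spring roots Ronda replicate 1 ap_12709(-) stood at 5.66 and PER45 at -6.52 (adjusted p = 0.0704, edgeR).

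**Figure D4:**
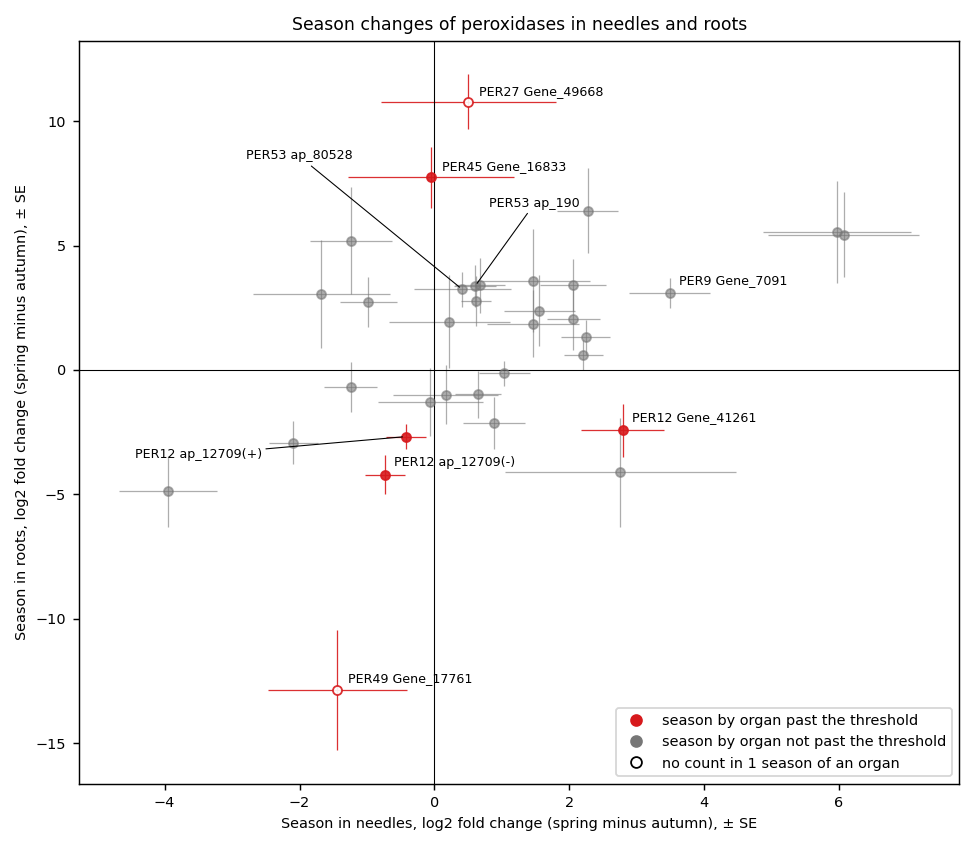
Season change in roots (vertical axis) against season change in needles (horizontal axis), both as log2 fold change of spring minus autumn with standard errors, for 34 peroxidases tested in both organs. The 6 in red passed the test of the difference between organs, and open points had no count in 1 season of an organ, which leaves the size of their root value undefined. PER27 and PER45 lie high near 0 on the needle axis, PER49 lies at the bottom, and 1 peroxidase with a standard error of 20 or more is left out.

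Needles held more RNA than roots of 21 peroxidases, some of which had hardly any root counts. Of the 42 peroxidases tested, 21 were higher in needles and 0 were lower, which is 50% of those tested beside 41.6% of all features, 25.4% higher and 16.2% lower. At an unadjusted p under 0.05, 22 peroxidases passed, and DESeq2 called 23 higher and 0 lower. The share of all features that DESeq2 called is not given here. The median log2 fold change of needles minus roots was 1.53 over the peroxidases and 0.13 over all features, and 37 of 42 were above 0. The fits average the log2 change over both seasons and sites.

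The grapevine-named PER5 features led the list. Gene_18206 had 31.9 to 174 CPM with a median of 88.0 in the 11 needle libraries, against 0 to 0.670 CPM with a median of 0 in the 11 root libraries, from 19413 counts in needles and 29 in roots. Gene_12956 had 36.8 to 149 CPM with a median of 59.0 in needles, against 0 to 0.692 CPM in roots, from 15381 counts in needles and 16 in roots. Gene_77549 had 9.93 to 42.8 CPM with a median of 15.7 in needles, against 0 to 0.494 CPM in roots, from 4360 counts in needles and 28 in roots. Every needle library lay above every root library for these 3 features. All 3 passed the test (adjusted p = 4.69e-09 for Gene_18206, 9.24e-09 for Gene_12956 and 5.91e-07 for Gene_77549, edgeR). The fits average over root groups without a count, so that the fitted sizes depend on how such groups are handled, and the ratio of mean CPM is given in their place. This ratio was 586 for Gene_18206 and 884 without autumn roots Yunquera replicate 2. It was 163 for Gene_77549. For Gene_12956 it was 972, with 14 of the 16 root counts in autumn roots Ronda replicate 2. Without that library it was 6188 and rested on 2 root counts, with an exact 95% Poisson interval of 1713 to 51093 that covers counting error only. The counts of Gene_18206 and Gene_12956 kept a ratio of 0.790 to 1.73 over the needle libraries. Gene_11849 was less exclusive, with 1.33 to 57.9 CPM and a median of 22.7 in needles, against 0 to 6.88 CPM and a median of 1.58 in roots (3.20 ± 0.66, SE, adjusted p = 0.000888, edgeR, and 4.95 without autumn roots Yunquera replicate 1). The remaining PER5 feature did not pass the test, with a log2 fold change of 0.42.

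The PER42 pair, Gene_44227 and Gene_44229, was likewise a needle pair. Gene_44227 had 6.75 to 273 CPM with a median of 86.5 in needles, against 0.268 to 56.6 CPM with a median of 1.13 in roots. The root maximum was autumn roots Yunquera replicate 3, and all other root libraries were at or below 9.78 CPM. The log2 fold change was 5.14 ± 0.91 (SE, adjusted p = 0.000212, edgeR) and 6.63 without that library. Gene_44229 had 1.44 to 20.02 CPM with a median of 10.4 in needles, against 0 to 2.03 CPM with a median of 0 in roots (5.85 ± 0.94, SE, adjusted p = 8.23e-05, edgeR). Its value ran up to 7.13, without spring roots Ronda replicate 1, and also moved without autumn roots Ronda replicate 3 (6.85), autumn roots Yunquera replicate 3 (6.75) and spring roots Yunquera replicate 1 (7.02). Their count ratio ran from 3.99 to 16.6 in needles, so the pair did not keep a constant proportion.

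PER9 Gene_34604 had counts in 9 of 11 needle libraries, with 0 to 25.1 CPM and a median of 1.07, against no count in the 11 root libraries. It was at least 231-fold higher in needles by the floor of 3 counts over the summed root libraries (adjusted p = 0.000419, edgeR). Spring needles Ronda replicate 2 at 25.1 CPM stood above the rest, which were at or below 2.93 CPM, and without it the gene was at least 71.8-fold higher. All 4 PER9 features had a log2 fold change above 0 and 3 of 4 were called. PER43 Gene_20354 had 4.42 to 132 CPM with a median of 51.5 in needles, against 1.10 to 27.4 CPM with a median of 8.15 in roots (2.22 ± 0.44, SE, adjusted p = 0.000562, edgeR, and 3.14 without spring roots Ronda replicate 1). PER63 Gene_14250 had 0.303 to 30.4 CPM with a median of 5.36 in needles, against 0 to 3.22 CPM with a median of 0.603 in roots. Its log2 fold change was 3.73 ± 0.76 (SE, adjusted p = 0.000794, edgeR), 5.71 without spring roots Ronda replicate 1 and 4.98 without autumn roots Yunquera replicate 2.

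Among the PER53 and PER12 groups the organs overlapped widely. PER53 ap_81007 had 43.7 to 264 CPM with a median of 127 in needles, against 0 to 139 CPM with a median of 13.3 in roots (2.37 ± 0.61, SE, adjusted p = 0.00465, edgeR). PER53 ap_18484 had 8.72 to 38.1 CPM with a median of 24.5 in needles, against 0.0535 to 30.6 CPM with a median of 5.29 in roots (1.92 ± 0.54, SE, adjusted p = 0.00814, edgeR). In both, spring roots other than Ronda replicate 3 reached needle levels or near them. Without spring roots Ronda replicate 1 these stood at 3.34 and 2.89, and without autumn roots Yunquera replicate 2 at 3.07 and 2.74. PER12 ap_12709(-) had 2.48 to 9.97 CPM in needles, against 0 to 22.8 CPM in roots. Its log2 fold change of 1.49 ± 0.37 (SE, adjusted p = 0.00383, edgeR) averages the seasons, and was 2.60 without spring roots Ronda replicate 1. With all 24 libraries it was 0.76 and not called (adjusted p = 0.276, edgeR).

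No peroxidase was called higher in roots in either tool, yet several had higher means there. PER49 averaged 2.34 CPM in needles and 25.5 CPM in roots. Its fitted log2 fold change was 1.70, from a fit that averages over root groups without a count. PER12 Gene_9669 (28.5 CPM in needles and 66.3 CPM in roots) and PER12 Gene_42488 (3.83 and 12.8 CPM) were further examples. PER45 averaged 0.906 CPM in needles and 19.4 CPM in roots, and PER27 averaged 0.229 CPM in needles and 5.69 CPM in roots. Their root counts came almost wholly from spring, and their log2 fold changes averaged over seasons were -1.53 and -0.31, neither past the test. The other 9 peroxidases called higher in needles were 2 PER12, 1 PER53, 2 PER9 and 2 PER66 features, PER72 Gene_5286 and the grapevine-named PER4, with fitted log2 fold changes from 1.01 to 4.21. They fell outside the rule for named genes and were listed after their values were seen. With all 24 libraries 14 peroxidases were called higher in needles.

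**Figure D5:**
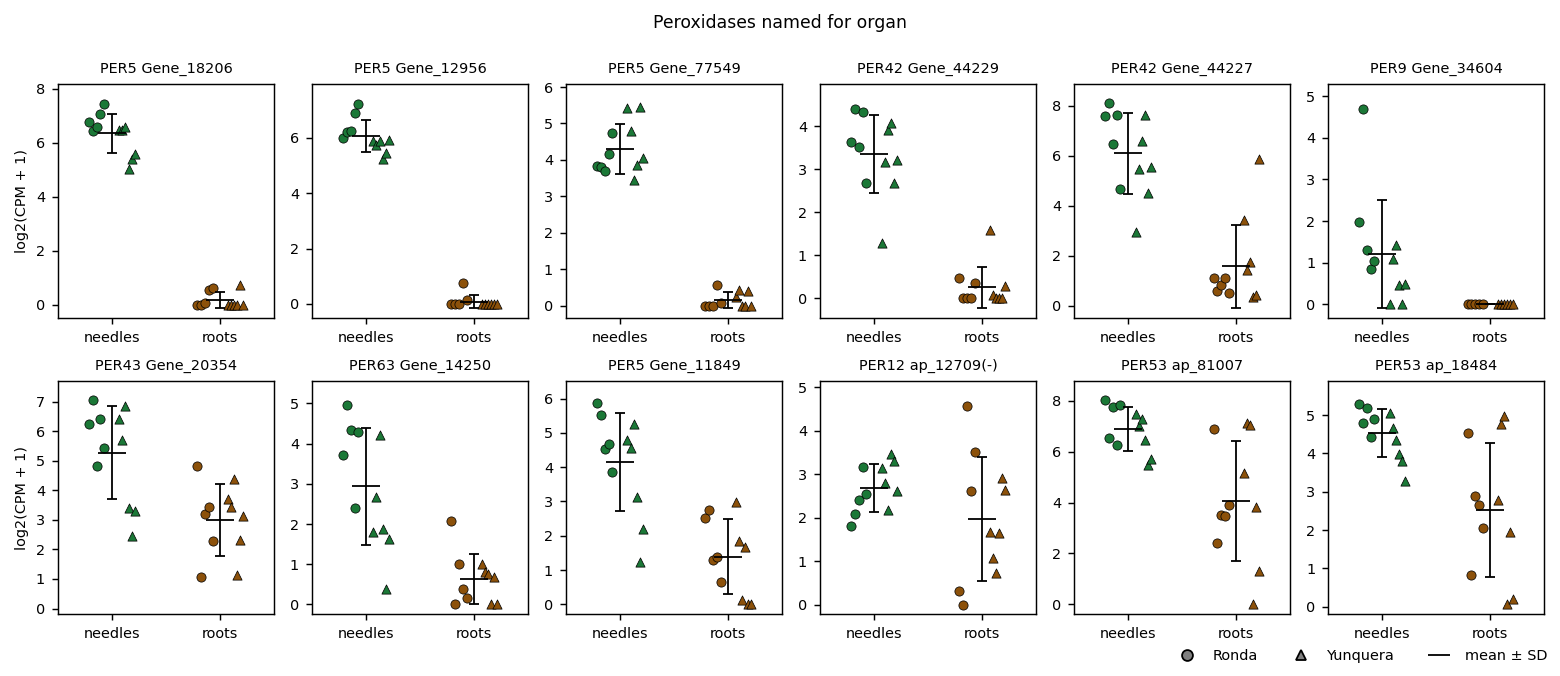
Values of the 12 named peroxidases that differed between organs, as log2(CPM + 1) per library, with needles left of roots, Ronda and Yunquera by marker, and bars for the mean ± SD of both seasons together. The PER5 features Gene_18206, Gene_12956 and Gene_77549 are separate between organs, PER9 Gene_34604 lies at 0 in all 11 root libraries, and the PER53 and PER12 features overlap.

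Site differences between Ronda and Yunquera, the upper and the lower forest edge, were called for peroxidases in autumn needles and in no other set. There 4 of 42 peroxidases tested were higher at Ronda and 0 were lower, which is 9.52% beside 1.71% of all features, 1.1% higher and 0.608% lower. PER5 Gene_18206 had 96.0, 135 and 174 CPM at Ronda, against 31.9, 40.9 and 46.6 CPM at Yunquera (log2 fold change 1.79 ± 0.23, SE, adjusted p = 0.0111, edgeR). PER5 Gene_12956 had 75.6, 118 and 149 CPM at Ronda, against 36.8, 42.3 and 59.0 CPM at Yunquera (1.33 ± 0.25, SE, adjusted p = 0.0343, edgeR). PER43 Gene_20354 had 27.4, 83.1 and 42.0 CPM at Ronda, against 9.47, 4.42 and 8.84 CPM at Yunquera (2.76 ± 0.51, SE, adjusted p = 0.0306, edgeR). All trees of Ronda lay above all trees of Yunquera for these genes. PER53 ap_190 did the same, with 36.3, 14.5 and 43.7 CPM at Ronda, against 8.35, 9.08 and 5.33 CPM at Yunquera (2.09 ± 0.44, SE, adjusted p = 0.0498, edgeR).

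In spring needles PER5 Gene_18206 had 109 and 84.9 CPM at Ronda, against 88.0, 87.6 and 94.9 CPM at Yunquera, so that the sites overlapped. PER5 Gene_12956 had 63.1 and 72.4 CPM at Ronda, against 58.9, 52.5 and 58.1 CPM at Yunquera, where Ronda stayed above but was not called. The difference between seasons in this site effect was not tested. Gene_18206 kept its autumn call without any 1 of the 6 autumn needle libraries (adjusted p from 0.0202 to 0.0494), while each of the other 3 lost it without 5 of the 6, with adjusted p up to 0.125 for PER43, 0.120 for Gene_12956 and 0.180 for ap_190. PER43 and Gene_12956 kept it only without Ronda replicate 1, and ap_190 only without Ronda replicate 2. The call of ap_190 also ended under RLE size factors (edgeR adjusted p = 0.0539), with no filter on low counts (edgeR adjusted p = 0.05002) and with the tree as a random block (limma voom adjusted p = 0.0887). The call of PER43 ended under that block too (limma voom adjusted p = 0.0548). Without the needles of tree 1 the adjusted p was 0.0629 for PER43, 0.0792 for Gene_12956 and 0.0813 for ap_190 (edgeR). The count fell to 2 without Ronda replicate 2, 1 without Ronda replicate 3, 2 without Yunquera replicate 1, 1 without Yunquera replicate 2 and 1 without Yunquera replicate 3, and with all 24 libraries it was 0 by edgeR, with 8 peroxidases at an unadjusted p under 0.05.

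In the remaining sets edgeR called 0 peroxidases by site, and DESeq2 also called 0. In spring needles 4 of 42 had an unadjusted p under 0.05, and the share of all features called was 0%. In spring roots 2 of 35 did, with 0% of all features called. In autumn roots 6 of 35 did, with 0.0324% of all features called, 0.027% higher and 0.00539% lower. The median log2 fold change of Ronda minus Yunquera was 0.42 in spring needles, 0.85 in autumn needles, -0.72 in spring roots and 1.54 in autumn roots for the peroxidases, and -0.03, 0.01, -0.02 and 0.00 for all features. In autumn roots 29 of 35 peroxidases had a log2 fold change above 0, including all 5 PER53 features tested (1.26 to 5.77) and 10 of 11 PER12 features. Among all 18538 features tested there, 9291 were above 0. In spring roots 13 of 35 peroxidases were above 0, with 0 of 5 PER53 and 2 of 11 PER12 features, beside 9008 of all 18538 features.

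Over the 8 comparisons, 32 of the 44 counted peroxidases were called at least once, 10 were tested and never called, and 2 were tested in none. The share of all features called at least once was not counted, and the organ comparison alone called 41.6% of all features tested. The 32 therefore set peroxidases apart from no other genes. The 10 were 5 of the 11 PER12 features, Gene_9669 among them, and 1 feature each of PER5, PER9, PER51, PER52 and PER72, with lowest adjusted p over the comparisons from 0.0775 to 0.603 (edgeR). The 2 untested were PER44, a root hair peroxidase in Arabidopsis, with 16 counts over the 24 libraries, and the horseradish-named PRXC3 with 6. PER33 and PER34, the peroxidases of the Arabidopsis apoplastic oxidative burst, were among no feature's best hits.

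Calls were also counted in 6 lists of genes, chosen by name for a link to wall formation or to the supply of hydrogen peroxide. The shares of all features to read them against are 8.79% higher and 6.49% lower by season in needles, 2.41% higher and 3.13% lower by season in roots, and 25.4% higher and 16.2% lower by organ. Laccases, which like peroxidases polymerise monolignols, had the highest median of the 6 lists examined by season in needles: of 11 tested by season in needles, 7 were higher and 1 was lower in spring, with a median log2 fold change of 5.09, beside 0.63 for the peroxidases and 0.03 for all features. LAC3 Gene_82891 averaged 18.2 ± 25.05 CPM in spring needles and 0.219 ± 0.222 CPM in autumn needles (SD, n = 5 and 6, log2 fold change 6.27 ± 1.32, adjusted p = 0.0135, edgeR). LAC17 Gene_76587 averaged 5.23 ± 6.38 CPM in spring needles and 0.0624 ± 0.0873 CPM in autumn needles (6.30 ± 1.35, adjusted p = 0.0144, edgeR). In roots 0 of 7 laccases were higher and 1 was lower in spring, LAC4 Gene_53987 (-5.99 ± 1.29, adjusted p = 0.0321, edgeR).

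Of the enzymes that make monolignols, 4 of 37 tested were higher and 3 lower in spring needles, and 1 of 31 was higher and 0 were lower in spring roots. C4H2 Gene_12162, the cytochrome P450 early in the phenylpropanoid route, was higher in spring needles (2.54 ± 0.56, adjusted p = 0.0158, edgeR), and CCR1 Gene_3908, which opens the monolignol branch, averaged 211 ± 99.7 CPM in spring roots and 24.7 ± 36.7 CPM in autumn roots (3.98 ± 0.74, adjusted p = 0.0166, edgeR). Between organs 12 of 37 were higher and 5 lower in needles. These shares lay near those of all features in needles by season and between organs. Dirigent proteins, which steer phenoxy radical coupling, had 1 of 12 higher in spring needles, DIR21 Gene_52132 (4.65 ± 0.69, adjusted p = 0.00311, edgeR), and 0 of 11 called in roots, where 1 had an unadjusted p under 0.05. Of 4 respiratory burst oxidases tested, which supply superoxide for hydrogen peroxide, 0 were called by season in needles or in roots by edgeR, and 0 had an unadjusted p under 0.05. Superoxide dismutases, which turn superoxide into the hydrogen peroxide that peroxidases use, had 0 of 8 higher and 1 lower in spring needles, 0 of 5 called in spring roots, where 1 had an unadjusted p under 0.05, and 4 of 8 higher and 1 lower in needles than in roots. CASP and CASP-like features had 1 higher and 1 lower of 10 in spring needles, 0 higher and 1 lower of 9 in spring roots, and 2 higher and 2 lower of 10 in needles against roots.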

How the data were processed

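The deposited file is 1 table of raw read counts per feature for 24 libraries. Reads were handled with CASAVA, HISAT2 and featureCounts per the submitters' processing notes, whose versions and settings, like the genome build, are not stated in any source used here. Counts were not normalized by the authors before deposit. Here edgeR 4.0.16 (R 4.3.3, with limma 3.58.1) fitted quasi-likelihood models on group means with TMM factors (0.870 to 1.18) and filterByExpr (count minimum 10, total minimum 15), over all features, with Benjamini-Hochberg adjustment and a threshold of 0.05. Per-length levels are CPM per kb of feature length. Plots use log2(CPM + 1).

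Fits of season and site used the libraries of 1 organ, and fits of organ and of season by organ used all 22. Each fit was tested on simulated data with known changes, for season in each organ and for organ, but not for site or season by organ. Not all known changes were recovered, and fewest in roots, so a lack of calls does not show a lack of change. Members and lists were chosen with earlier results of these data known, and 2 libraries were set aside for an organ signal against their label. Named members passed the threshold, changed by 1 or more on the log2 scale in either direction and averaged 5 CPM or more in some group, at most 12 by adjusted p for season in each organ and for organ, and 5 for the others, plus the 6 highest by CPM per kb in each organ. The labels number the trees as biological replicates across organs and seasons, and the protocol gives 6 independent trees. Of 20 same-tree correlations of deviations from group means, 17 were over 0.1 (range -0.294 to 0.526), those of tree 1 needles including the lowest. No 2 libraries of a group agreed within sampling noise (chi-square per degree of freedom at least 56.0). Where separate trees are not guaranteed, p-values measure only the spread between these samples. Alternatives were RLE size factors, no filter, DESeq2 1.42.0, all 24 libraries, the needles of tree 1 left out, the tree as a block, and each library left out in turn.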

Additional observations from a re-analysis of the deposited data

Results flagged for a closer look

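The season change differed between needles and roots for 7 peroxidases, by the test of the difference of the log2 season changes. The number was 4 with the tree as a block, 1 without the needles of tree 1 and 1 with all 24 libraries. These fitted differences, whose size is no bound for PER27, PER49 and PER5 Gene_18206 with a root season without counts, were -10.21 for PER27, 3.49 for PER12 ap_12709(-), 11.41 for PER49, -7.75 for PER45, 5.83 for PER5 Gene_18206 (-0.39 with all 24 libraries), 5.24 for PER12 Gene_41261 and 2.29 for PER12 ap_12709(+). For PER27, PER45 and PER49 the roots had none or few counts in 1 season and more in the other. Spring roots had 3.68 to 42.5 CPM of PER27 and 10.9 to 142 CPM of PER45. Autumn roots had 0.146 to 88.3 CPM of PER49. Needle values stayed at or under 6.45 CPM in both seasons, which overlaps the lower root values of PER27 and PER49.

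The library labelled spring roots Ronda replicate 2, which was set aside, held peroxidases that the 11 root libraries used hardly expressed. It had 67.2 CPM of PER5 Gene_18206, 46.7 CPM of PER5 Gene_12956, 14.2 CPM of PER5 Gene_77549, 58.1 CPM of PER63 and 24.8 CPM of PER42 Gene_44229. It also had 221 CPM of PER72 Gene_5286, 48.98 CPM of PER9 Gene_4267 and 28.4 CPM of PER9 Gene_34604, all at least 10 times the level in every root library used. It exceeded all 11 root libraries for 19 of 44 peroxidases, with a peroxidase sum of 1868 CPM. The library labelled spring needles Ronda replicate 3, also set aside, exceeded all needle libraries used for 6 of 44 and had a sum of 429 CPM.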

How the results depend on the processing

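RLE size factors and no filter on low counts kept every count of called peroxidases within 1.5 times. DESeq2 called 17 by season in roots, 9 by site in autumn needles and 13 for season by organ. With all 24 libraries 0 were called by site in autumn needles and 1 for season by organ, and PER5 Gene_18206 reversed to -0.39 there. Without the needles of tree 1 the counts were 2 by site in autumn needles and 1 for season by organ. With the tree as a replicate block they were 7 by season in needles and 4 for season by organ, and a random block in limma voom gave 2 by site in autumn needles. With the block and without the needles of tree 1, chosen after seeing the data, they were 22 by season in needles and 1 for season by organ. In the other counts the replicate block stayed within 1.5 times. Shares of all features called are given above for the tree as a block in edgeR, and for no other alternative. The other counts of this section therefore describe the peroxidases alone, since a setting may call more of all features. The cause of these shifts was not tested. Leaving out 1 library gave 9 to 16 by season in needles, 4 to 9 by season in roots, 18 to 26 by organ, 1 to 3 by site in autumn needles, 2 to 9 for season by organ and 0 in the other 3 site comparisons. Of 849 values of named peroxidases under alternatives, 754 kept direction and side of the threshold, 94 lost the call and 1 reversed. The mean summed level at Ronda was 1249.8 CPM with the set-aside library and 1660.0 CPM without it in spring needles, and 1041 CPM with it and 628 CPM without it in spring roots. A count of 0 in a library allows a level of up to 0.109 to 0.225 CPM (3 counts).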
